A study of Mus musculus with 208 samples.

Results

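The 7 genes of the N-methyl-D-aspartate (NMDA) receptor, Grin1, Grin2a, Grin2b, Grin2c, Grin2d, Grin3a and Grin3b, were followed by symbol through 208 RNA-seq libraries of neuronal nuclei from the mouse brain. They are 7 of the 46403 genes in the count tables. Each library came from about 5000 nuclei that were sorted with an antibody to the neuronal protein NeuN from 1 brain region of 1 adult wild-type C57BL/6NTac mouse. The 4 regions were the hippocampus (n = 55), the hypothalamus (n = 51), the prefrontal cortex (PFC, n = 48) and the striatum (n = 54). The 4 conditions were SAL-SAL (saline in early life and saline in adulthood), MOR-SAL (morphine in early life, saline in adulthood), SAL-LPS (saline in early life, bacterial lipopolysaccharide in adulthood) and MOR-LPS (both agents). Early-life morphine reached the pups through a minipump in the dam at 10 mg/kg per day and then through injections of 10 mg/kg 2 times per day over the first 2 postnatal weeks, and all pups were raised by drug-naive dams. Tissue was taken 2 h after the adult injection. Replicates are labelled by a pair of numbers. The 71 pairs each had 1 condition and 1 sex in all their libraries, and each was taken as 1 animal. The first of the pair, called the label number here, took 18 values, 8 with early-life saline and 10 with morphine. What it marks is not given in the sources used here, and the methods of the study count litters differently. No label number held both exposures, so that exposure and label number cannot be told apart.

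NMDA receptors are glutamate-gated cation channels of the excitatory synapse. They need both glutamate and a co-agonist, glycine or D-serine, together with depolarisation that relieves the magnesium block of the pore, and they carry the calcium that starts many forms of synaptic plasticity. GluN1, encoded by Grin1, is the obligatory subunit and binds the co-agonist. The GluN2 subunits, encoded by Grin2a to Grin2d, bind glutamate and set the kinetics of the channel, and the GluN3 subunits, encoded by Grin3a and Grin3b, bind glycine and lower its calcium permeability. In the rodent forebrain Grin2b is the main GluN2 gene early in life and Grin2a joins it with maturation, whereas Grin2c is known from cerebellar granule cells, some thalamic neurons and astrocytes, and Grin2d from the diencephalon, brainstem and interneurons.

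Hippocampal libraries held between 227025 and 24071488 counts, hypothalamic libraries between 7673 and 35077048, PFC libraries between 3056648 and 21988203 and striatal libraries between 5954700 and 92945090. Of these, 2 hippocampal, 3 hypothalamic and 3 PFC libraries lay below 0.5 times the median depth of their region. In 9 libraries (4 hippocampal, 3 hypothalamic and 2 PFC) the Y-linked genes went against the labelled sex. All 6 neuron markers had counts in the hypothalamus and 5 of 6 in the other regions, where Nefl was at 0 in every library. Summed over the list, neuron markers had medians of 5023, 2227, 5627 and 4647 CPM (counts scaled to the depth of a library) in the hippocampus, hypothalamus, PFC and striatum. Markers of the thalamus, which borders the hypothalamus, were counted in every region, with medians of 1279, 229, 1934 and 3764 CPM in the same order. The 10 hypothalamic peptide and regulator genes of the marker list summed to a median of 79.1 CPM in the hypothalamus and to 9.49, 14.3 and 13.2 CPM elsewhere. Counting differed between the hypothalamic table and the others: Grin1os, the antisense partner of Grin1, had counts in 49 of 51 hypothalamic libraries and in none of the other regions. Whether this difference moved the values of the subunits in the region comparisons was not tested.

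Levels across regions are given as CPM scaled jointly over all libraries by the trimmed mean of M-values (TMM). Region differences come from 1 edgeR quasi-likelihood fit of all libraries with condition and sex as terms, with p-values adjusted by the Benjamini-Hochberg method over the 32841 genes tested and a call at an adjusted p under 0.05. Of the 7 genes, 6 were called between hypothalamus and hippocampus, where 62.1% of all genes were called, and 6 between PFC and hypothalamus, against 63.3% of all genes. Between striatum and hypothalamus 5 of 7 were called, against 63.7% of all genes. Among the 3 other regions 1 of 7 was called between PFC and hippocampus (27.3% of all genes), 5 between striatum and hippocampus (28.4%) and 4 between striatum and PFC (31.2%). The median log2 fold change over all genes was 0.52 for hypothalamus against hippocampus, −0.55 for PFC against hypothalamus and −0.47 for striatum against hypothalamus, and it was 0.18, −0.16 and −0.18 when the fit was limited to genes with counts in every region.

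Grin1 (chromosome 2, 25291181 to 25319187, minus strand, mm10) is the gene of the obligatory subunit. Its median CPM was 444 in hippocampal libraries (range 265 to 741), 442 in hypothalamic libraries (0 to 776), 473 in PFC libraries (172 to 927) and 321 in striatal libraries (166 to 609.6). The 1 hypothalamic library at 0 was the shallowest of the series, where a count of 0 allows up to 391 CPM. The ranges overlapped in all 4 regions. Grin1 was lower in the striatum than in the hippocampus (log2 fold change −0.37 ± 0.08 SE, edgeR adjusted p = 6.60e-05), the hypothalamus (−0.42 ± 0.08, adjusted p = 2.45e-06) and the PFC (−0.47 ± 0.08, adjusted p = 8.34e-07). The other 3 regions were not called from each other. With library size as the only scaling, the hypothalamus was higher than the hippocampus (0.19, adjusted p = 0.0280) and than the PFC (PFC against hypothalamus −0.21, adjusted p = 0.0203). The exons of Grin1 overlap those of Grin1os on the opposite strand over 1103 of 9700 bases, and reads from both strands may have entered either gene.

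Grin2a (chromosome 16, 9567898 to 9995560, minus strand) encodes the GluN2A subunit of mature synapses and was lowest in the hypothalamus. In the hippocampus its CPM ran from 849 to 6443 with a median of 2549.9. In the PFC it ran from 359 to 3581 with a median of 1344, and in the striatum from 262 to 2959.9 with a median of 1316. In the hypothalamus it ran from 80.1 to 1296 with a median of 173, so that only the upper end of the hypothalamic libraries reached the range of the other regions. The hippocampus stood above the PFC (PFC against hippocampus −1.05 ± 0.15, adjusted p = 6.64e-10) and the striatum (−1.19 ± 0.15, adjusted p = 2.07e-12), and PFC and striatum were not called from each other. The hypothalamus was lower than the hippocampus by 3.57 ± 0.16 on the log2 scale, with a fitted log2 fold change of −3.57 (adjusted p = 1.40e-54).

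Grin2b (chromosome 6, 135713233 to 136173511, minus strand), the gene of the slower GluN2B subunit, was at similar levels in 3 regions. Its median CPM was 1781 in hippocampal libraries (range 827 to 3081), 1716 in PFC libraries (765 to 3061) and 2076 in striatal libraries (623 to 3380.3). None of these 3 pairs was called by edgeR, and the striatum against hippocampus value of 0.12 became −0.01 when libraries were scaled by size alone. By limma-voom the striatum was higher than the hippocampus without the animal as a term (0.59, adjusted p = 6.82e-09) and in the paired fit with the animal as a replicate block (0.50, adjusted p = 1.40e-14), and the same held against the PFC (0.63, adjusted p = 3.37e-07, and 0.50, adjusted p = 1.52e-08). The median over all genes in these 4 fitted values was −0.19, −0.22, −0.11 and −0.22, against 0.01 and 0.03 by edgeR. In the hypothalamus Grin2b ran from 97.0 to 1297 CPM with a median of 370.3. The log2 fold change was −2.11 ± 0.11 against the hippocampus (adjusted p = 1.55e-46), and 2.07 ± 0.11 and 2.23 ± 0.11 for PFC and striatum against the hypothalamus (adjusted p = 3.10e-44 and 8.68e-49).

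Grin2c (chromosome 11, 115249169 to 115267243, minus strand), the gene of GluN2C, was a low transcript in all regions. Its median CPM was 3.74 in hippocampal libraries (range 0 to 44.7), 4.37 in PFC libraries (0 to 29.4), 7.06 in hypothalamic libraries (0 to 267) and 19.9 in striatal libraries (2.06 to 101). Grin2c had no count in 7 hippocampal, 4 hypothalamic and 6 PFC libraries, and a count of 0 allows up to a median of 0.354, 10.2 and 0.318 CPM in those libraries, which covers counting error only. The hypothalamic range was the widest because 2 libraries lay far above the rest. The hypothalamus was called higher than the hippocampus (1.35 ± 0.32, adjusted p = 8.38e-05) and than the PFC (PFC against hypothalamus −1.28 ± 0.34, adjusted p = 3.43e-04), and without label number 10 these values were 1.00 (adjusted p = 0.00634) and −0.89 (adjusted p = 0.0245). The striatum was called higher than the hippocampus (2.35 ± 0.33, adjusted p = 2.96e-10), the PFC (2.29 ± 0.34, adjusted p = 5.36e-09) and the hypothalamus (1.00 ± 0.32, adjusted p = 0.00379). The first 2 of these calls were each kept under 6 of 7 alternatives, with adjusted p up to 0.615 and 0.125. The last was not called with the animal as a replicate block (0.49, adjusted p = 0.248), and in the SAL-SAL libraries alone it had the opposite sign (−1.15, adjusted p = 0.170).

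The 250 bases upstream of the RefSeq start of Grin2c are shown beside those of the longer Prkcd transcript, because Prkcd, the gene of protein kinase C delta and a marker of thalamic neurons, is the gene against which Grin2c was read per library. Both are on the minus strand of build GRCm38.p6, and capitals mark the letters GGGCGG, the GC box, or its reverse complement.
Grin2c, chr11:115267244-115267493: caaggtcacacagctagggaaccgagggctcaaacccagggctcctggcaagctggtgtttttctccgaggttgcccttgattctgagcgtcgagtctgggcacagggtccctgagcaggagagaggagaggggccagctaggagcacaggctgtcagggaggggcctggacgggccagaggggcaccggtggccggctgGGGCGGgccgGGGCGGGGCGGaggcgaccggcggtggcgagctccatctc
Prkcd, chr14:30626209-30626458: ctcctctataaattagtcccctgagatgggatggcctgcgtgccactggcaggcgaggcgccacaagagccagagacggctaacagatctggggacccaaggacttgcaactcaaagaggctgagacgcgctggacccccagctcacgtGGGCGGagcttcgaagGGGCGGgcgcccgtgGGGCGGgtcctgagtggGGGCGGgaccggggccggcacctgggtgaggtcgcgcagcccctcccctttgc
The GC box was found 3 times in the Grin2c window, with 1 base shared by 2 of the matches, and 4 times in the Prkcd window shown. It was found 0 times in the window of another Prkcd start (chr14:30610311-30610560) and 0 times in those of Grin1, Grin2d and Grin3b. It was present in 32.7% of 32851 RefSeq windows of the same length. The share of G and C was 68.8% and 67.6% in the 2 windows shown and 50.8% for the other Prkcd start, against a median of 52.4% over all windows. The letters CTTTGAT, the core bound by TCF and LEF factors, were in neither window shown on either strand and in 3.21% of all windows. AGGTCA, a motif of ROR receptors, was found 1 time in the Grin2c window and in 14.0% of all windows.

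Grin2d (chromosome 7, 45831883 to 45878378, minus strand), which encodes the slowly deactivating GluN2D, had its highest level in the hypothalamus. Its CPM had a median of 41.8 there, with a range from 0 to 102, against medians of 22 in the striatum, 18.4 in the PFC and 15.4 in the hippocampus. The ranges overlapped. The hypothalamus was higher than the hippocampus (1.41 ± 0.16, adjusted p = 6.85e-15), and both PFC (−1.09 ± 0.17, adjusted p = 3.63e-09) and striatum (−0.73 ± 0.17, adjusted p = 3.45e-05) were lower than the hypothalamus. The striatum was also higher than the hippocampus (0.68 ± 0.16, adjusted p = 2.80e-04), while the PFC was called from neither.

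Grin3a (chromosome 4, 49661611 to 49845744, minus strand) encodes GluN3A, which is found mainly in young neurons. Its median CPM was 81.5 in the striatum, 81.3 in the hypothalamus, 58.9 in the hippocampus and 56.3 in the PFC. Striatum and hypothalamus were not called from each other, nor were PFC and hippocampus. The hypothalamus was higher than the hippocampus (0.48 ± 0.13, adjusted p = 6.40e-04), a difference below the median shift of all genes in that comparison, and the striatum was higher than the hippocampus (0.57 ± 0.13, adjusted p = 1.88e-04) and the PFC (0.59 ± 0.14, adjusted p = 2.00e-04). Grin3b (chromosome 10, 79970715 to 79977190, plus strand) was close to the limit of detection. It had no count in 33 of 55 hippocampal, 28 of 48 PFC, 17 of 51 hypothalamic and 5 of 54 striatal libraries, and its highest value in any library was 5.84 CPM. Its exons share 1059 of 3296 bases with Tmem259 on the opposite strand, which had a mean between 14.9 and 61.1 CPM, so the Grin3b values are uncertain. Grin3b was called higher in the hypothalamus than in the hippocampus (1.80 ± 0.47, adjusted p = 3.05e-04), and PFC was lower than both the hypothalamus (−2.13 ± 0.52, adjusted p = 1.18e-04) and the striatum (striatum against PFC 1.38 ± 0.49, adjusted p = 0.0202). In the SAL-SAL libraries alone neither PFC difference was called and both had the opposite sign. The striatum against hippocampus value of 1.05 (adjusted p = 0.0692) was called with the animal as a replicate block (1.69, adjusted p = 1.47e-04).

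**Figure D1:**
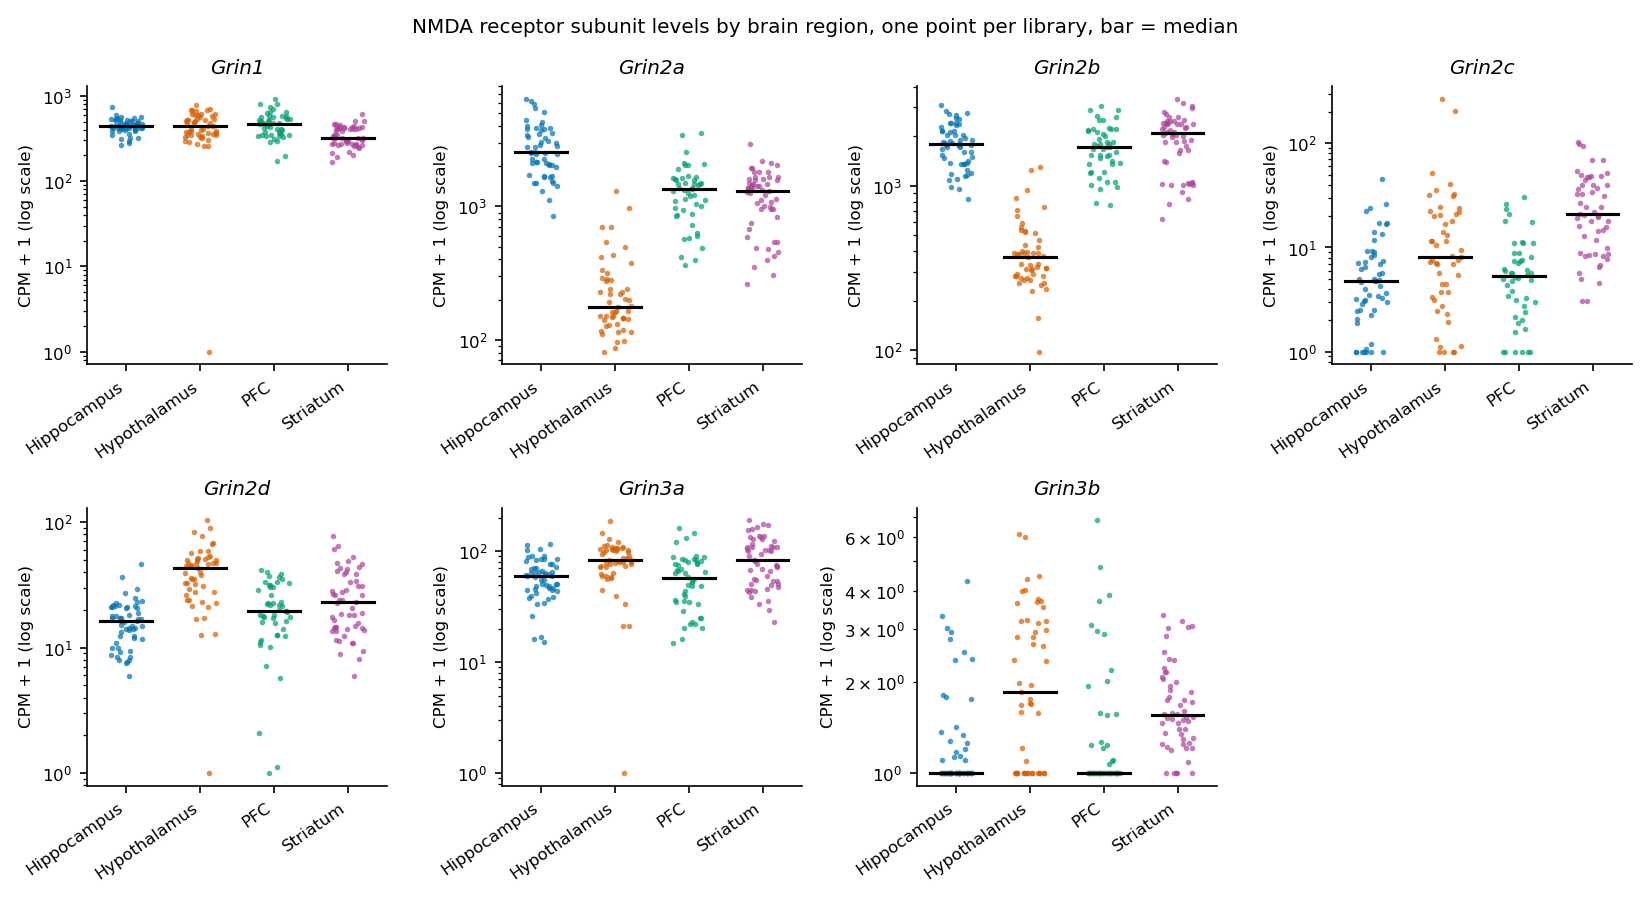
Each panel shows 1 subunit gene, with CPM + 1 on a log axis against the 4 regions, 1 point per library (n = 55, 51, 48 and 54) and a bar at the median. Grin1 has medians between 321 and 473 CPM, Grin2a and Grin2b drop in the hypothalamus to medians of 173 and 370.3 CPM, and Grin2d peaks there at a median of 41.8 CPM.

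Between genes, levels can be compared only per length, and for this the deposited CPM were divided by the exon bases of each gene. Nuclear RNA also holds introns, which the exon length does not cover. In libraries that were not of low depth, Grin1 made up 49.6% ± 6.96 (SD, n = 48) of the summed per-length level of the 7 genes in the hypothalamus, against 17.3% ± 5.37 (n = 53) in the hippocampus, 25.0% ± 8.85 (n = 45) in the PFC and 19.2% ± 6.86 (n = 54) in the striatum. Grin2a was the largest part in the hippocampus at 53.6% ± 7.42, and in the hypothalamus it came after Grin1 and Grin2b at 13.9% ± 6.90. Grin2b had 25.8% ± 2.81 in the hippocampus, 17.3% ± 4.04 in the hypothalamus, 34.7% ± 4.93 in the PFC and 38.9% ± 3.68 in the striatum. The 4 low genes, Grin2c, Grin2d, Grin3a and Grin3b, together stayed a small part outside the hypothalamus, where Grin2d reached 7.06% ± 3.41 and Grin3a 8.14% ± 3.67.

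**Figure D2:**
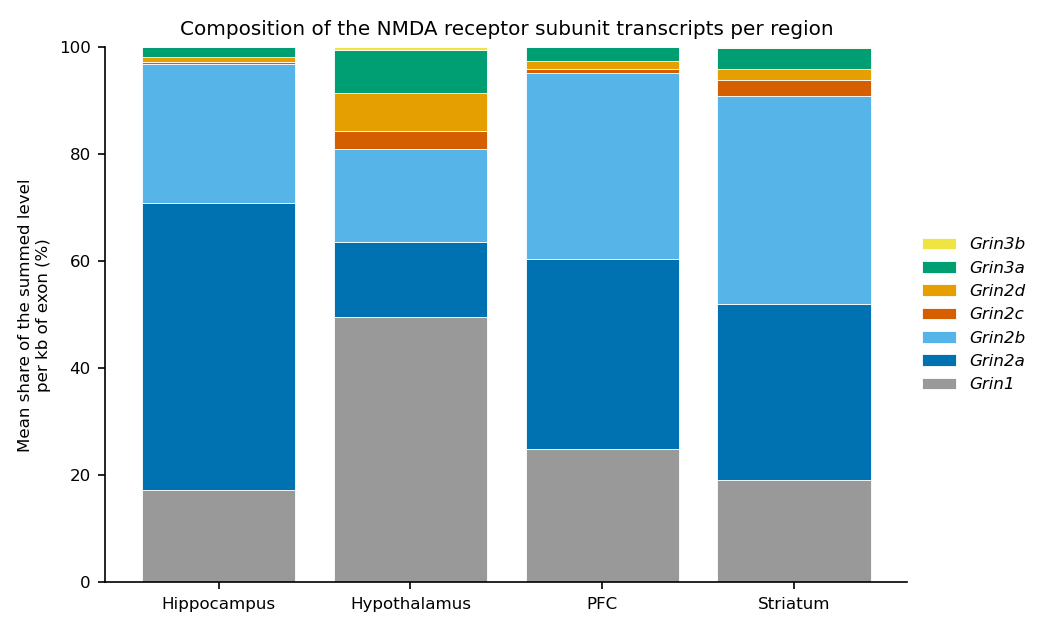
Stacked bars give the mean share of each gene, in percent, in the summed level per kb of exon of the 7 genes for each region, without low-depth libraries. Grin1 takes 49.6% in the hypothalamus, and Grin2a takes 53.6% in the hippocampus.

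Among the 4 GluN2 genes alone, Grin2a had a share of 66.1% ± 5.18 in the hippocampus, 48.6% ± 7.21 in the PFC, 42.4% ± 6.25 in the striatum and 32.8% ± 10.8 in the hypothalamus. Grin2d had 17.9% ± 9.15 of the GluN2 level in the hypothalamus and between 1.16% and 2.73% in the other regions. The log2 ratio of Grin2a to Grin2b per length was above 0 in 53 of 53 hippocampal libraries (mean 1.05 ± 0.324 SD), in 25 of 45 PFC libraries (0.00659 ± 0.421), in 6 of 54 striatal libraries (−0.27 ± 0.321) and in 13 of 48 hypothalamic libraries (−0.40 ± 0.562). In the hypothalamus it was above 0 in 6 of 14 MOR-LPS libraries and in 2 of 9 SAL-SAL, 2 of 14 MOR-SAL and 3 of 11 SAL-LPS libraries. These shares and ratios are descriptions and were not tested.

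The effect of early-life morphine and of LPS was tested within each region by edgeR's quasi-likelihood test with sex as a term, over 22076 genes in the hippocampus, 28859 in the hypothalamus, 21729 in the PFC and 23426 in the striatum. Values of single genes within a region are CPM after TMM scaling of that region, and summed marker levels are deposited CPM. The 7 genes gave 6 calls over the 5 contrasts in the hypothalamus, and 0 calls in each of the other 3 regions. In the hypothalamus 1 of 7 was called for MOR-SAL against SAL-SAL, where 1.44% of all genes were called, 1 of 7 for MOR-LPS against SAL-LPS (1.03%), 0 of 7 for SAL-LPS against SAL-SAL (0.246%), 1 of 7 for MOR-LPS against MOR-SAL (6.27%) and 3 of 7 for the interaction (3.8%). The interaction is the log2 effect of LPS after morphine minus its effect after saline. The comparisons share groups, so their calls are not independent of one another. When limma-voom estimated the correlation within label numbers, none of the 6 calls was made, with adjusted p from 0.125 to 0.404.

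In the hypothalamus Grin2c fell in MOR-SAL animals relative to the SAL-SAL animals. Its CPM in SAL-SAL ran from 0 to 289 with a median of 35.8 (n = 11), and in MOR-SAL from 0 to 18.6 with a median of 2.91 (n = 14). Each of the 14 MOR-SAL libraries lay under the median of SAL-SAL, while the ranges overlapped. The 2 SAL-SAL libraries with no Grin2c count were both of low depth, and without low-depth libraries SAL-SAL still began at 0.367 CPM (n = 9). The fitted log2 fold change was −3.53 ± 0.62 SE (adjusted p = 9.37e-04). In SAL-LPS the CPM ran from 0 to 38.6 with a median of 13.1 (n = 12), and in MOR-LPS from 0.130 to 37.1 with a median of 11.6 (n = 14). SAL-LPS was below SAL-SAL by a log2 fold change of −1.98 ± 0.62 (adjusted p = 0.0946) and MOR-LPS above MOR-SAL by 1.54 ± 0.57 (adjusted p = 0.0845), and neither was called. Some alternatives called MOR-LPS against MOR-SAL: females only (2.48, adjusted p = 0.0315), no sex term (1.74, 0.0400), the hippocampus covariate (2.12, 0.0499) and the fits without label number 1 (1.58, 0.0487), 6 (2.13, 0.0345) or 10 (1.69, 0.0489). The 2 groups given LPS had a log2 fold change of −0.01 ± 0.55 (adjusted p = 1). The interaction was 3.52 ± 0.85 (adjusted p = 0.0104).

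The 2 highest libraries, at 289 and 216 CPM, both came from label number 10. In these 2 libraries the 10 hypothalamus markers summed to 7.46 and 4.13 CPM, against a median of 79.1 CPM over the region, and the thalamus markers to 2586 and 3643 CPM. Without label number 10 the log2 fold change of MOR-SAL against SAL-SAL was −2.25 ± 0.59 (adjusted p = 0.0645) and the interaction 2.50 ± 0.86 (adjusted p = 0.107), so both calls ended, and SAL-LPS against SAL-SAL was −0.81 ± 0.67 (adjusted p = 0.775). Leaving out any other of the 17 label numbers with hypothalamic libraries kept both calls. The libraries of the same animal as the 289 CPM had 15.9 CPM of Grin2c in the PFC, 7.12 CPM in the striatum and 16.3 CPM in the hippocampus. In females alone the MOR-SAL against SAL-SAL value was −4.85 (adjusted p = 3.51e-04) and in males alone −2.23 (adjusted p = 0.425), and the difference between the sexes was not tested. The 2 SAL-SAL libraries of label number 10 were both labelled female, so only the value in females includes them.

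Thalamic markers were also highest in SAL-SAL, and the medians of their sum were close in MOR-SAL and SAL-LPS. Prkcd alone had medians of 121 CPM in SAL-SAL, 16.3 in MOR-SAL, 49.4 in SAL-LPS and 28.1 in MOR-LPS. The 8 genes of the thalamus list, all with counts in the hypothalamus, summed to a median of 702 CPM in SAL-SAL with a range from 102 to 3643, and to medians of 206, 204 and 255 CPM in MOR-SAL, SAL-LPS and MOR-LPS. With the level of these markers as a covariate, the MOR-SAL against SAL-SAL value of Grin2c was −2.03 (adjusted p = 0.139) and the interaction 1.92 (adjusted p = 0.329), so neither was called. Covariates for cortex, hippocampus or striatum markers, added after seeing the data, left the first value between −3.54 and −3.24 and called. In bulk nuclei, fewer cells of a type and less RNA per cell cannot be told apart. Astrocytes are another known source of Grin2c, and the 8 astrocyte markers, Gfap included, summed to medians of 208 CPM in SAL-SAL, 235 CPM in MOR-SAL, 211 CPM in SAL-LPS and 505 CPM in MOR-LPS. Their part in the Grin2c values was not tested.

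Grin2a was higher in MOR-LPS than in either comparison group in the hypothalamus. Its CPM ran from 126 to 537 with a median of 257 in SAL-SAL, from 125 to 425 with a median of 182 in MOR-SAL, from 100.5 to 319 with a median of 179.8 in SAL-LPS and from 98.2 to 1481 with a median of 255 in MOR-LPS. The MOR-LPS group held both the lowest and the highest library of the 4 groups, and 9 of its 14 libraries were above the MOR-SAL median. The log2 fold change was 1.15 ± 0.28 against MOR-SAL (adjusted p = 0.00906) and 1.11 ± 0.30 against SAL-LPS (adjusted p = 0.0475), and the interaction was 1.55 ± 0.41 (adjusted p = 0.0189). MOR-SAL and SAL-LPS had log2 fold changes of −0.44 ± 0.29 and −0.41 ± 0.30 against SAL-SAL and were not called, and without label number 10 they were 0.01 ± 0.29 and 0.03 ± 0.32. The call against SAL-LPS ended without any of 13 of the 17 label numbers, with adjusted p up to 0.101. Under other alternatives it was kept in 6 of 17, and it ended with DESeq2 and without low-depth libraries. The interaction ended without label number 10 (1.06, adjusted p = 0.174) and without label number 14 (1.37, adjusted p = 0.0511).

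The 5 libraries with the highest Grin2a, between 643 and 1481 CPM, were all MOR-LPS and came from label numbers 6, 8, 14 and 16. In 4 of these 5 the 5 hippocampus markers summed to between 1096 and 2689 CPM, against a MOR-SAL range from 295 to 532 CPM, and in the remaining library they summed to 274 CPM beside 282 CPM of cortex markers. The hypothalamus markers summed to between 4.28 and 45.7 CPM in these 5 libraries, against the region median of 79.1 CPM. Over the 48 hypothalamic libraries that were not of low depth, Spearman's rho of Grin2a was 0.043 with the hippocampus markers, 0.469 with the cortex markers, 0.454 with the thalamus markers and −0.685 with the hypothalamus markers. These are descriptions, and some of the libraries share a label number. Slc17a7, the vesicular glutamate transporter of cortical and hippocampal neurons, ran from 1.68 to 254 CPM with a median of 43.8 in MOR-LPS and from 0 to 24.9 CPM with a median of 3.03 in MOR-SAL. With a covariate for hippocampus or for cortex markers, MOR-LPS against MOR-SAL was 0.73 (adjusted p = 0.118) and 0.65 (adjusted p = 0.140), and with the thalamus covariate it was 1.08 (adjusted p = 0.00444). The call against SAL-LPS ended with the hippocampus and the cortex covariate (0.59, adjusted p = 0.459, and 0.52, adjusted p = 0.502). The interaction ended with the cortex covariate (0.95, adjusted p = 0.198) and the thalamus covariate (0.90, adjusted p = 0.242). The part of neighbouring tissue in the Grin2a values was not tested beyond these covariates.

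In the hypothalamus the interaction of Grin2b was also positive. Its CPM ran from 302 to 1395 with a median of 460.0 in SAL-SAL, from 318 to 448 with a median of 366 in MOR-SAL, from 108 to 662 with a median of 333 in SAL-LPS and from 190.3 to 1429 with a median of 525 in MOR-LPS. Each of the 14 MOR-SAL libraries lay under the median of SAL-SAL, and the MOR-SAL group was the narrowest. The interaction was called at 1.24 ± 0.32 (adjusted p = 0.0143). The single contrasts were not: −0.67 ± 0.22 for MOR-SAL against SAL-SAL (adjusted p = 0.0853), −0.65 ± 0.23 for SAL-LPS against SAL-SAL (adjusted p = 0.148), 0.60 ± 0.21 for MOR-LPS against MOR-SAL (adjusted p = 0.0719) and 0.57 ± 0.22 for MOR-LPS against SAL-LPS (adjusted p = 0.180). Some alternatives called 2 of these contrasts. DESeq2 called MOR-LPS against MOR-SAL (0.68, adjusted p = 0.0268), as did edgeR with DESeq2's size factors (adjusted p = 0.0319), in males only (0.0473) and without label number 15 (0.0336). MOR-SAL against SAL-SAL was called without low-depth libraries (−0.78, adjusted p = 0.0494), without label number 1 (0.0273) and with the hippocampus (0.0210) or the cortex covariate (0.0488). Without label number 10 it was −0.21 ± 0.21 (adjusted p = 0.759), and SAL-LPS against SAL-SAL was −0.30 ± 0.24 (adjusted p = 0.752). The interaction was not called without label number 10 (0.83, adjusted p = 0.132), with the thalamus covariate (0.62, adjusted p = 0.290) or with the cortex covariate. Apart from left-out label numbers it was kept under 10 of 18 alternatives.

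The remaining members gave no call in the hypothalamus. Grin1 had log2 fold changes between −0.16 and 0.12 over the 5 contrasts, with SE from 0.17 to 0.25. Grin2d was at −0.54 ± 0.25 for MOR-LPS against SAL-LPS (adjusted p = 0.291) and between −0.44 and 0.08 in the other contrasts. Grin3a had a median of 117 CPM in MOR-SAL, with a range from 93.0 to 165, and 83.1 CPM in SAL-SAL, with a range from 21.7 to 129. All 14 MOR-SAL libraries were above the SAL-SAL median, yet the difference of 0.53 ± 0.21 was not called (adjusted p = 0.156). Grin3b was at 0 in 17 libraries and its SE was between 0.74 and 1.21.

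**Figure D3:**
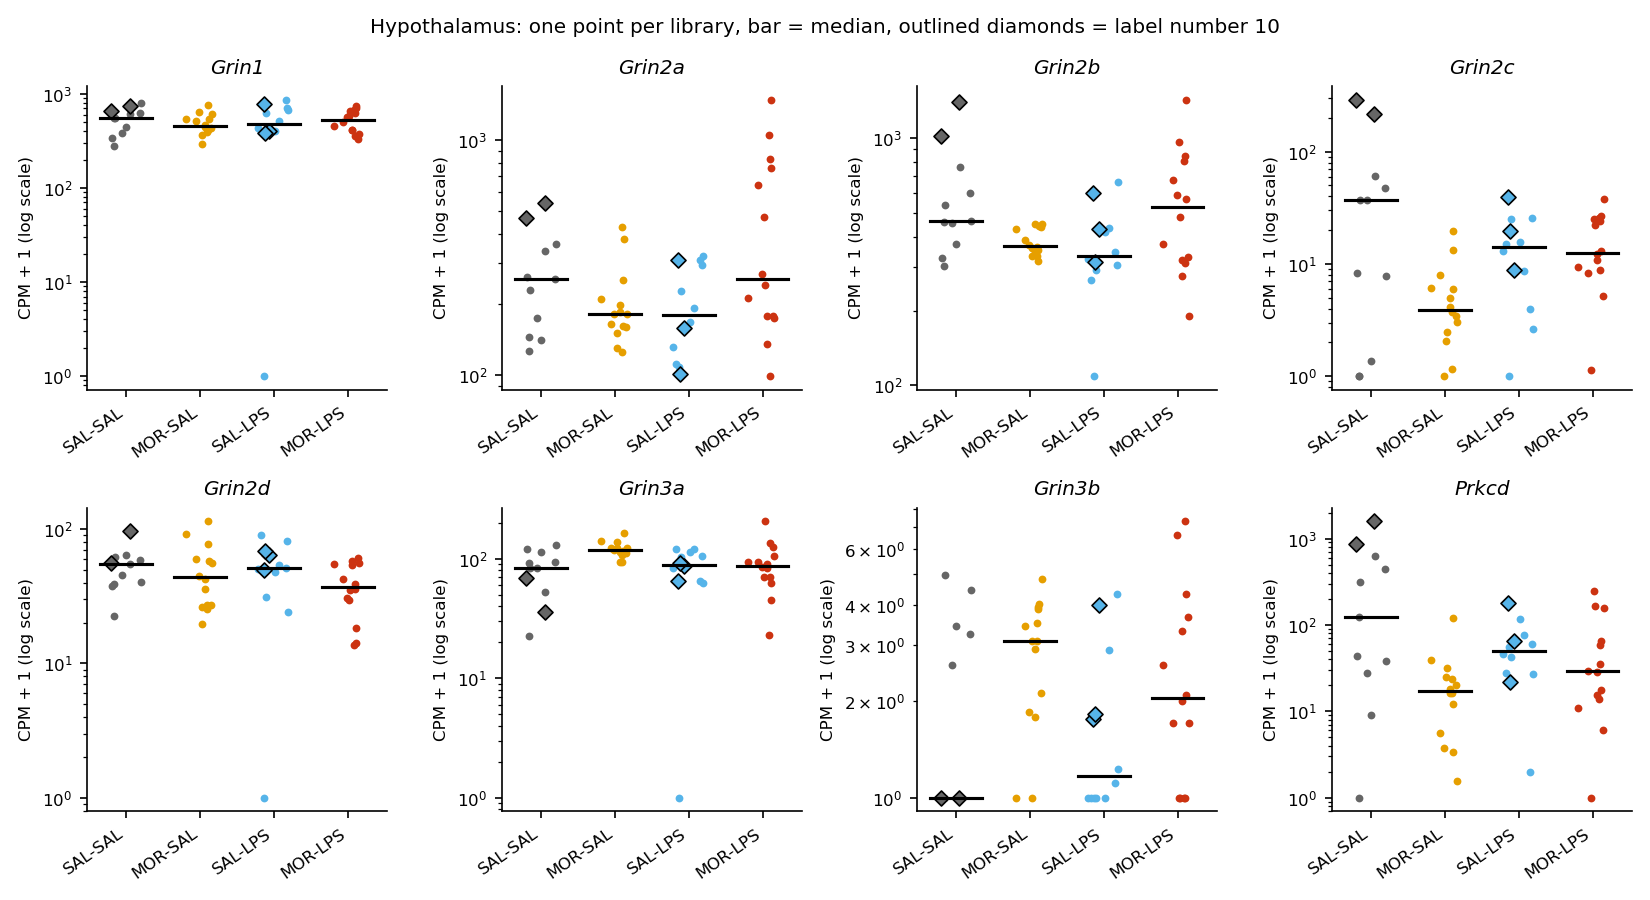
Each panel shows 1 gene in the hypothalamus, with CPM + 1 on a log axis against condition, 1 point per library (n = 11, 14, 12 and 14), a bar at the median and outlined diamonds for label number 10. In Grin2c and Prkcd the 2 SAL-SAL diamonds lie at the top, at 216 and 289 CPM for Grin2c, and in Grin2a the upper MOR-LPS points reach 1481 CPM.

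In the hippocampus, PFC and striatum no member was called in any contrast. In the hippocampus 0% of all genes were called for MOR-SAL against SAL-SAL, 2.73% for MOR-LPS against SAL-LPS, 2.55% for SAL-LPS against SAL-SAL, 0.467% for MOR-LPS against MOR-SAL and 2.35% for the interaction. In the PFC these shares were 0%, 0.0046%, 0%, 0.0184% and 1.78%, and in the striatum 0%, 0%, 0.0128%, 1.39% and 0.00854%. At an unadjusted p under 0.05 the 7 genes and 5 contrasts gave 4 values in hippocampal, 3 in PFC and 4 in striatal libraries. DESeq2 also called 0 of these in each of the 3 regions. In the hippocampus the median of Grin2c was 6.28 CPM in SAL-SAL (range 0 to 45.0, n = 13), 2.58 CPM in MOR-SAL (0 to 8.26, n = 12), 3.94 CPM in SAL-LPS (0 to 7.16, n = 14) and 2.96 CPM in MOR-LPS (0 to 25.3, n = 16). In 11 of 12 MOR-SAL libraries the value was below the SAL-SAL median, with a log2 fold change of −1.81 ± 0.72 (adjusted p = 0.279), and the interaction was 2.55 ± 0.97 (adjusted p = 0.172). Prkcd in the hippocampus had a median of 29.9 CPM in SAL-SAL, 11.7 in MOR-SAL, 6.76 in SAL-LPS and 10.1 in MOR-LPS, while the 8 thalamus markers summed to medians of 1189 CPM, 1033, 1349 and 1550.3 in the same order. The part of thalamic tissue in these values was not tested. In the striatum the medians of Grin2c were 18.3 CPM in SAL-SAL, 25.4 in MOR-SAL, 15.5 in SAL-LPS and 21.8 in MOR-LPS, and the log2 fold change of MOR-SAL against SAL-SAL was 0.54 ± 0.55 (n = 8 and 13, adjusted p = 0.734). In the PFC it was −0.86 ± 0.81 (adjusted p = 0.939).

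Grin2a and Grin2b showed no difference between conditions outside the hypothalamus that was larger than the spread between animals. Hippocampal medians of Grin2a were 2807 CPM in SAL-SAL, 2970.1 in MOR-SAL, 2208 in SAL-LPS and 2550.1 in MOR-LPS, with ranges from 854 to 6477 over the 4 groups. The log2 fold changes of Grin2a stayed between −0.12 and 0.08 in the hippocampus, with SE from 0.23 to 0.34, and those of Grin2b between −0.11 and −0.01. In the striatum the interaction was −0.65 ± 0.42 for Grin2a (adjusted p = 0.462) and −0.59 ± 0.32 for Grin2b (adjusted p = 0.379). The largest fitted value was the interaction of Grin3b in the PFC at 6.03 ± 1.76 (adjusted p = 0.0552), which rests on a SAL-LPS group in which 9 of 10 libraries had no Grin3b count and the remaining one 0.192 CPM.

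**Figure D4:**
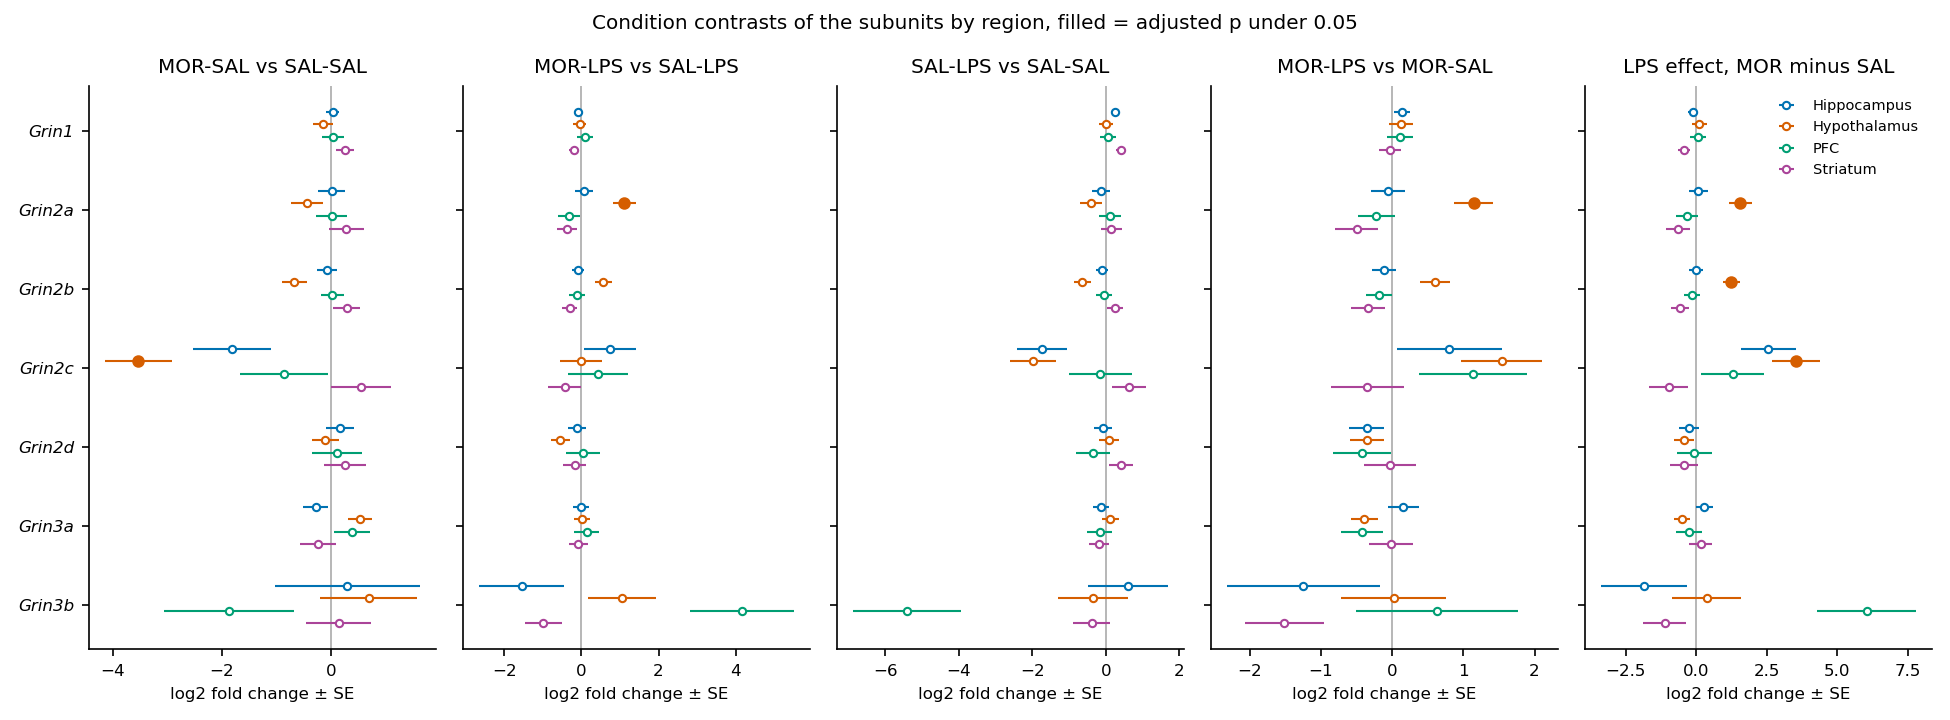
Each panel is 1 contrast, with the log2 fold change and its SE for the 7 genes in the 4 regions, and filled symbols mark an adjusted p under 0.05. The filled symbols are those of the hypothalamus, with Grin2c at −3.53 for MOR-SAL against SAL-SAL and at 3.52 for the interaction.

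The difference of the morphine effect between the hypothalamus and the mean of the 3 other regions was tested in the joint fit. For MOR-SAL against SAL-SAL it was −2.91 ± 0.77 for Grin2c (adjusted p = 0.0286), the 1 call of 7, where 1.11% of all genes were called. It was −1.60 without label number 10 (adjusted p = 0.630). For MOR-LPS against SAL-LPS it was 1.37 ± 0.33 for Grin2a (adjusted p = 0.0114), again 1 call of 7, where 1.14% of all genes were called. By limma-voom neither was called (−2.60, adjusted p = 0.0940, and 0.62, adjusted p = 0.853), where the median over all genes was −0.38 and −0.83 against 0.08 and −0.04 by edgeR. Grin2b had −0.77 ± 0.25 (adjusted p = 0.106) and 0.74 ± 0.24 (adjusted p = 0.114) in these comparisons.

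Grin2c was then set against Prkcd in every library, both as log2(CPM + 1) from the deposited CPM. In the hypothalamus Pearson's r was 0.627 and Spearman's rho 0.549 (n = 51 libraries, two-sided permutation p = 1e-05, the smallest that 100000 permutations can give, and 6e-05, Benjamini-Hochberg adjusted over the 4 regions 1.33e-05 and 8e-05). Without the 2 libraries farthest from the median of Prkcd, 10-1 and 1-1, r was 0.549 (permutation p = 7e-05). Without label number 10 it was 0.527 (permutation p = 2.3e-04). Within conditions r was 0.773 in SAL-SAL (n = 11, permutation p = 0.00517) and 0.800 in MOR-LPS (n = 14, permutation p = 0.00108), but 0.142 in MOR-SAL (n = 14, permutation p = 0.630) and 0.153 in SAL-LPS (n = 12, permutation p = 0.612). In SAL-LPS it was 0.567 without the low-depth library (n = 11, permutation p = 0.0741). After TMM scaling Prkcd ran from 0.547 to 119.6 CPM in MOR-SAL and from 0 to 1580.1 CPM in SAL-SAL. It ran from 1.00 to 176 CPM in SAL-LPS and from 0 to 247 CPM in MOR-LPS. Whether these ranges bear on the differences in r was not tested. These permutations treat all libraries of a region as independent, although label numbers are shared within it and both SAL-SAL libraries of label number 10 were high in both genes, so the p-values may be too small.

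The relation was not limited to the hypothalamus. In the striatum r was 0.845 and rho 0.863 (n = 54, permutation p = 1e-05 each, adjusted 1.33e-05 and 2e-05), and r was between 0.733 and 0.946 within each of the 4 conditions. In the hippocampus r was 0.653 and rho 0.653 (n = 55, permutation p = 1e-05 each, adjusted 1.33e-05 and 2e-05), with 0.0820 within MOR-SAL (n = 12, permutation p = 0.797) and between 0.6 and 0.847 in the other conditions. Without the 2 farthest libraries r was 0.839 in the striatum and 0.612 in the hippocampus. In the PFC r was 0.174 and rho 0.164 (n = 48, permutation p = 0.235 and 0.262, adjusted 0.235 and 0.262). The same limit on the p-values holds here, and libraries of 1 animal occur in several regions, so the regions are not independent of each other.

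**Figure D5:**
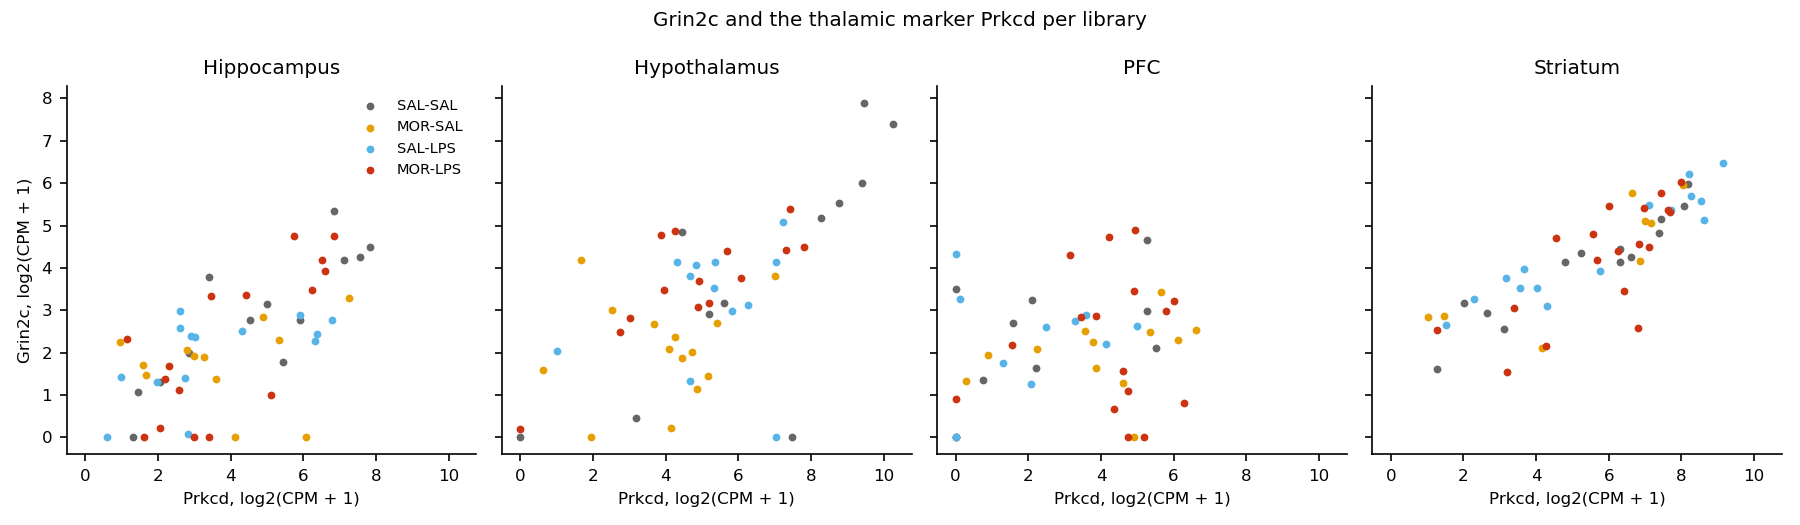
Each panel is 1 region, with log2(CPM + 1) of Grin2c against log2(CPM + 1) of Prkcd, 1 point per library, coloured by condition. Points rise together in the striatum (r = 0.845), hippocampus (r = 0.653) and hypothalamus (r = 0.627), and form a cloud in the PFC (r = 0.174).

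Over the 51 hypothalamic libraries the 5 genes whose ranks were most like those of Grin2c, of 13108 others at a mean of 5 CPM or more, were Sh3d19 (Spearman rho 0.857), Heg1 (0.740), Bmp1 (0.723), Cnksr3 (0.718) and Rell1 (0.716), and Prkcd stood at rank 70. For the other genes likeness was the mean of the 4 rhos within regions, over 9846 genes at 5 CPM or more in every region. Grin2a and Grin2b were among the 3 genes most like each other, with a mean rho of 0.774, and the nearest to Grin2a was Kalrn (0.805), while the nearest to Grin2b was Kcnq3 (0.798), a subunit of the M-current channel. Grin1 was nearest to Gtf3c1 (0.618) and had mean rhos of 0.0538 and 0.0615 with Grin2a and Grin2b. Grin3a was nearest to Dner (0.677), and Grin2d to Zfp423 (0.567). These are descriptions over libraries that differ in depth and tissue content.

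Of 34 genes that act around the receptor, among them scaffolds, kinases, glutamate transporters and enzymes of the co-agonist D-serine, 8 were higher and 0 lower for MOR-LPS against MOR-SAL in the hypothalamus, with a median log2 fold change of 0.27 against 0.00 over all genes, of which 6.27% were called. The higher genes included Slc1a2 (1.96 ± 0.26, adjusted p = 8.33e-06) and Slc1a3 (2.36 ± 0.52, adjusted p = 0.00481), which encode the glial glutamate transporters, and Slc17a7 (3.35 ± 0.76, adjusted p = 0.00569). They also included Ptk2b (2.66 ± 0.55, adjusted p = 0.00230), Camk2a (1.25 ± 0.27, adjusted p = 0.00338) and Ppp3ca (0.99 ± 0.22, adjusted p = 0.00508), the genes of the kinase Pyk2, of CaMKII alpha and of a calcineurin catalytic subunit, and the postsynaptic scaffold genes Dlgap1 (0.83 ± 0.22, adjusted p = 0.0180) and Dlg3 (0.64 ± 0.18, adjusted p = 0.0241). The last 2 calls ended without label number 16, and that of Dlgap1 also without label number 14 and that of Dlg3 without label number 6, with adjusted p up to 0.0927 and 0.121. Slc1a3 is also on the astrocyte list, whose median was 505 CPM in MOR-LPS and 235 CPM in MOR-SAL. The 5 hippocampus markers summed to between 274 and 2689 CPM with a median of 533 in MOR-LPS, and to between 295 and 532 CPM with a median of 449 in MOR-SAL. The part of astrocytes and of neighbouring tissue in the values of the pathway genes was not tested.

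For the interaction 4 of 34 were higher and 0 lower, where 3.8% of all genes were called, namely Slc1a2 (2.49 ± 0.39), Camk2a (1.43 ± 0.39), Ptk2b (2.83 ± 0.77) and Src (1.07 ± 0.30). For MOR-LPS against SAL-LPS (1.03% of all genes called) 2 were higher, Camk2a (1.12 ± 0.28) and Slc1a2 (1.27 ± 0.28), and for MOR-SAL against SAL-SAL (1.44% of all genes called) 1 was lower, Slc1a2 (−1.23 ± 0.27, adjusted p = 0.0105). Without label number 10 this last call ended (−1.08, adjusted p = 0.0645). The 2 calls against SAL-LPS ended without any of 10 label numbers for Camk2a (adjusted p up to 0.108) and of 7 label numbers for Slc1a2 (up to 0.0762). The Camk2a interaction ended without label number 3, 6, 10 or 16 (up to 0.0763). The Ptk2b interaction ended without label number 9 or 10 (up to 0.0937) and the Src interaction without 1, 10 or 16 (up to 0.0942). The Slc1a2 interaction was kept whichever label number was left out. For SAL-LPS against SAL-SAL 0 of 34 were called in the hypothalamus, against 0.246% of all genes, and Shank2, a postsynaptic scaffold gene, came nearest at −0.78 ± 0.20 (adjusted p = 0.0587). Elsewhere Dlg1 was higher for SAL-LPS against SAL-SAL in the hippocampus (0.61 ± 0.18, adjusted p = 0.0497), a call that DESeq2 did not make (adjusted p = 0.0615). In the striatum Slc1a3 was higher (1.58 ± 0.42, adjusted p = 0.0433) and Dlg4, the gene of the scaffold PSD-95, lower (−0.62 ± 0.15, adjusted p = 0.0269) for MOR-LPS against MOR-SAL. No gene of the list was called in the PFC, where Dlg4 was at −0.70 ± 0.19 for the same contrast (adjusted p = 0.0797).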

How the data were processed

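Per the labels and the study's methods, nuclear RNA was made into modified Smart-seq3 libraries. The authors trimmed reads with Trim Galore 0.6.7, aligned them to mm10 with STAR 2.7.10a, which also counted reads per gene, and checked the counts with HTSeq-count 0.12.4. Whether counting used strand is not given in the sources used here. The deposited count tables hold raw counts for 46403 genes, and the deposited CPM tables hold CPM that the authors made from counts without 37 mitochondrial genes.

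Within each region, genes with a total count above 10 were tested with edgeR 4.0.16 (TMM, quasi-likelihood test, condition and sex as terms, R 4.3.3), with Benjamini-Hochberg adjustment over all genes tested. Regions were compared in 1 fit of the 16 region and condition groups with sex. SE is the log2 fold change divided by the root of F. Alternatives used DESeq2 1.42.0, limma 3.58.1, other scalings and filters, sexes apart, left-out label numbers and marker covariates, and those for cortex, hippocampus and striatum markers were chosen after seeing the data. Libraries with the same pair of numbers in the label were taken as 1 animal. The first number (label number) was used for the correlation, the block and the left-out fits, and the sources used here do not say that it marks a litter. Label number 10 was singled out after its values were seen. Correlations used log2(CPM + 1) and permutation tests. Intervals and the limit at a count of 0 (3 counts) cover counting error only.

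The members and gene lists were chosen with earlier results of these data known. Named genes were the 7 members, the called genes of the pathway list or, where none was called, those with the smallest p, and the genes ranked most like each member. Positions and exon lengths come from GENCODE M21, promoter sequences from RefSeq on GRCm38.p6. The fits were tested on simulated data.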

Additional observations from a re-analysis of the deposited data

Results flagged for a closer look

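In groups of 4 to 10 libraries, 4 of 21 sets of values had an end library farther from the rest than Dixon's 95% criterion allows, where chance gives about 1 in 20. In the PFC the highest SAL-SAL library, from label number 10, had 2341 CPM of Grin2a, with 1491 CPM next. Grin3b had its highest PFC values at 5.33 CPM in SAL-SAL, with 2.49 CPM next, and at 0.192 CPM (2 counts) in SAL-LPS. There the other 9 libraries were at 0, so the criterion had to be passed and this set says nothing against chance. In the striatum the lowest MOR-SAL library had 1039 CPM of Grin2b, with 1883 CPM next.

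The effect of LPS differed between the early-life exposures in the hypothalamus by an interaction term, at 1.55 for Grin2a, 1.24 for Grin2b and 3.52 for Grin2c on the log2 scale. Each of the 3 calls ended without label number 10. The morphine effect differed between the hypothalamus and the other regions by −2.91 for Grin2c (MOR-SAL against SAL-SAL) and by 1.37 for Grin2a (MOR-LPS against SAL-LPS), and limma-voom called neither.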

How the results depend on the processing

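In the hypothalamus edgeR made 6 calls among the 7 genes and 5 contrasts. The count was 0 with the correlation within label numbers estimated by limma-voom, 0 with limma on log2(CPM + 1) and on log2(CPM + 0.1), 3 in females only (2 of them among the 6), 2 in males only (1 among the 6), 2 with the thalamus covariate (both among the 6) and 3 with the cortex covariate (2 among the 6), which was added after seeing the data. It ran from 2 to 7 when 1 label number at a time was left out, with 2 without label number 10, where 5 of the 6 calls ended and 1 call was new, Grin2c for MOR-LPS against MOR-SAL. Of the 6 calls, DESeq2 kept 5 and edgeR's own expression filter kept 4. Leaving out low-depth libraries kept 5 of them, as did leaving out libraries whose Y-linked genes went against the label. The labels do not say that label numbers pair libraries, and the SAL and LPS libraries of 1 label number deviated together from their group means (r above 0.1 over genes) for 2 of 15 label numbers in the hypothalamus (median r 0.034). With the label number as a replicate block, the 4 calls in the LPS contrasts and the interaction were 2, the Grin2c interaction (3.00, adjusted p = 0.0442), which was among the 4, and Grin2c for MOR-LPS against MOR-SAL (1.68, adjusted p = 0.0422), which was not. Between regions, libraries of 1 animal deviated together in 10 of 35 to 17 of 35 pairs. The 27 calls between regions were 15 in the SAL-SAL libraries only, where 3 called values turned: Grin3b was 0.31 for PFC against hypothalamus and −0.35 for striatum against PFC, and Grin2c −1.15 for striatum against hypothalamus. The 2 calls for the difference between the hypothalamus and the other regions were 0 by limma-voom and 1 without label number 10. Over 5 alternatives the Grin2c call was kept in 2 and the Grin2a call in 4. The causes of these changes were not tested beyond the fewer libraries of some fits. In the hippocampus, PFC and striatum the count stayed at 0 under every alternative run. Grin3b had a count of 0 in 83 libraries, and in the shallowest hypothalamic library a count of 0 allows up to 391 CPM. The fits without low-depth libraries and without those whose Y-linked genes went against the label were not run in the striatum, which had 0 of them.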
